A study of Mus musculus with 12 samples.

Results

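Expanded islet clones of CD8 T cells are described here, as 1777 cells that bound an IGRP tetramer and 2744 cells that did not. A cell entered if its barcode held exactly 1 TCR α and 1 TCR β contig, if under 5% of its UMIs came from mitochondrial genes and if it had 200 to 3500 genes. A clone was a pair of CDR3 nucleotide sequences within a library, and only clones of 5 or more cells were kept, which gave 241 clones and 4521 of the 26818 cells of the series. The 2 libraries of each group were 2 rounds, and in each round the islets of 10 prediabetic NOD/ShiLtJ females aged 10 to 15 wk were pooled, so no cell can be traced to a mouse. Cells were sorted as CD45.1+ CD8+ without CD4, B220 and CD11b, and then by binding of an H-2Kd tetramer loaded with the mimotope peptide NRP-V7 (IGRP+) or by its absence (IGRP-). The IGRP- group is defined only by not binding this tetramer, so the targets of its clones are unknown. Both groups carry no transgene and no treatment, and each tetramer group of a round was 1 library, so tetramer binding and library cannot be told apart within a round.

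IGRP is a protein of pancreatic β cells, and CD8 T cells that see its peptide on H-2Kd take part in the diabetes of NOD mice. A T cell that meets its antigen divides, and its daughters carry the same rearranged α and β chains. The number of cells with 1 receptor was therefore taken as a measure of clone growth. Because mice were pooled, the same pair formed separately in different mice would also count as 1 clone. In chronically inflamed tissue, T cells that meet their antigen are known to keep inhibitory receptors on their surface and to lose genes of naive and memory cells. The comparison asks whether cells of large clones still differ between the 2 tetramer groups, once cells of small clones are set aside.

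In the order IGRP- Round 1, IGRP- Round 2, IGRP+ Round 1 and IGRP+ Round 2, the expanded cells numbered 940, 1804, 637 and 1140, in 73, 116, 22 and 30 clones. Their summed counts ran from 3670239 to 9311807 UMIs, and the median cell held 4434 to 4824 UMIs. Markers of CD8 T cells (Cd3e, Cd3d, Cd3g, Cd8a, Cd8b1 and Trac) summed to 5582 and 4940 CPM (UMI counts scaled to a common library total) in IGRP- and to 6305 and 5279 CPM in IGRP+ cells. Markers of CD4 T cells, γδ T cells, other endocrine cells and B cells stayed between 0 and 3.15 CPM in sum, and those of red blood cells were at 0. Between 25 and 31 expanded barcodes per library were also listed in another library. Clones found in both tetramer groups of a round (4 in Round 1 and 1 in Round 2) were left out, and 1 of them held 232 IGRP- cells against 1 IGRP+ cell.

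The sequences of the receptors show how narrow the IGRP+ group was. All 52 IGRP+ clones used TRAV16N (on mm10, chr14:53351028-53351621) and had an α CDR3 of 45 bases, and 48 of them joined it to TRAJ42 (chr14:54175773-54175836). They carried 14 α sequences in all. The 5 α sequences found in over 1 clone follow, 5′ to 3′ from the deposited contigs, together with that of the largest clone with another TRAJ gene, TRAJ49, and capitals mark the bases that differ from the commonest sequence.
IGRP+ α 1: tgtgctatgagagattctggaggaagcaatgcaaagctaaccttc
IGRP+ α 2: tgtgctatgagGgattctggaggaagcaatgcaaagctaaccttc
IGRP+ α 3: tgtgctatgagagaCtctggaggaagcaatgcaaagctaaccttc
IGRP+ α 4: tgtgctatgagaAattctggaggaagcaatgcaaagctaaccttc
IGRP+ α 5: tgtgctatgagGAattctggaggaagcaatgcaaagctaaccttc
IGRP+ α, TRAJ49: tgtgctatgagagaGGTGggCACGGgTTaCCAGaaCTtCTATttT

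The first of these was carried by 27 of 52 clones and 1052 of 1777 IGRP+ cells, in 8 clones of Round 1 and 19 clones of Round 2, and it was paired with 24 different β sequences. The second was found in 8 clones and 400 cells, in 4 clones of each round. Of the 14 α sequences, 4 were found in both rounds, and in IGRP- clones 5 of 180 were. The whole pair of α and β sequences turned up among cells of the same tetramer group in the other round for 5 of 22 and 3 of 30 IGRP+ clones, and for 0 of 73 and 1 of 116 IGRP- clones. Of the 14 α sequences, 4 lay 1 base from the commonest one, and the capitals of the first 5 all fall in 1 short stretch. Near-identical copies of TRAV16 cannot always be separated in such contigs, so the copy named is uncertain.

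The β chains of the IGRP+ clones were more varied, with 42 sequences in 52 clones. TRBV13-3 (chr6:41130147-41130585) was used by 16 of 22 clones in Round 1 and 27 of 30 clones in Round 2. The 3 sequences with the most cells that joined it to TRBJ2-4 are given with capitals for the bases that differ from the first of them, since 2 of them recurred in 4 clones each, in both rounds.
IGRP+ β 1: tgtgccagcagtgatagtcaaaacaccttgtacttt
IGRP+ β 2: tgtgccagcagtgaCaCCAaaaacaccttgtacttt
IGRP+ β 3: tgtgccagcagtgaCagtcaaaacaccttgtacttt

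IGRP- clones had no such common receptor. Their 189 clones held 180 α and 187 β sequences, from 30 TRAV and 18 TRBV genes in Round 1 and from 45 TRAV and 20 TRBV genes in Round 2, and no α or β sequence was shared with an expanded IGRP+ clone. TRAV16N was still their most used TRAV gene, in 12 of 73 and 13 of 116 clones. None of these 25 clones joined it to TRAJ42, and their CDR3 was 45 bases long in 10 of them. Among the clones left out because both tetramer groups held them, some did join TRAV16N to TRAJ42, with 4, 2 and 2 IGRP- cells. One TRAV16N and TRAJ40 sequence recurred in 4 IGRP- clones, 2 in each pool of mice, with 31 cells in all. It is shown with capitals for the bases that differ from the commonest IGRP+ α, and the receptors of the largest IGRP- clone of each round follow in lower case.
IGRP- α in 4 clones: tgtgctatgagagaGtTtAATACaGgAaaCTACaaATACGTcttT
IGRP- Round 1, 90 cells, α: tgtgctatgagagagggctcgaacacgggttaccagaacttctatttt
IGRP- Round 1, 90 cells, β: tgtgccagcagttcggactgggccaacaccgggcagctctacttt
IGRP- Round 2, 96 cells, α: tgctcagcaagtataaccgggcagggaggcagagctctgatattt
IGRP- Round 2, 96 cells, β: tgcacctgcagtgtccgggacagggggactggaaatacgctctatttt

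Almost all IGRP+ cells with a receptor pair belonged to expanded clones, while most IGRP- cells did not. Expanded clones held 96.1% of the 663 paired IGRP+ cells in Round 1 (95% Clopper-Pearson interval 94.3 to 97.4) and 95.8% of 1190 in Round 2 (94.5 to 96.9). The shares in IGRP- cells were 34.1% of 2753 (32.4 to 36.0) and 32.9% of 5481 (31.7 to 34.2). The means were 95.9% ± 0.198 and 33.5% ± 0.870 (SD, n = 2), a difference of 62.4 percentage points, and the groups did not overlap. Clone size chose the cells described here, so these shares and the clone sizes that follow are a description, with no test. The intervals cover counting error only. They leave out pairs that formed separately in different mice of a pool and were counted as 1 clone. Whole pairs recurred in the other round for 5 of 22 and 3 of 30 IGRP+ clones, against 0 of 73 and 1 of 116 IGRP- clones. The limit of 5 cells was also the same for libraries with unequal numbers of paired cells. The part of either in the shares and clone sizes was not tested.

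Above the limit of 5 cells, the median IGRP+ clone held 10.5 cells in Round 1 and 22 in Round 2, and the median IGRP- clone 8 and 10. The groups did not overlap, and the means differed by 7.25 cells, which is less than the SD of 8.13 between the IGRP+ rounds. Without IGRP+ Round 2 the difference was 1.5 cells, and without IGRP+ Round 1 it was 13 cells. The largest clones held 116 and 205 IGRP+ cells and 90 and 96 IGRP- cells. Clones of 20 or more cells took in 479 of 637 and 1005 of 1140 IGRP+ cells, against 418 of 940 and 966 of 1804 IGRP- cells.

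**Figure D1:**
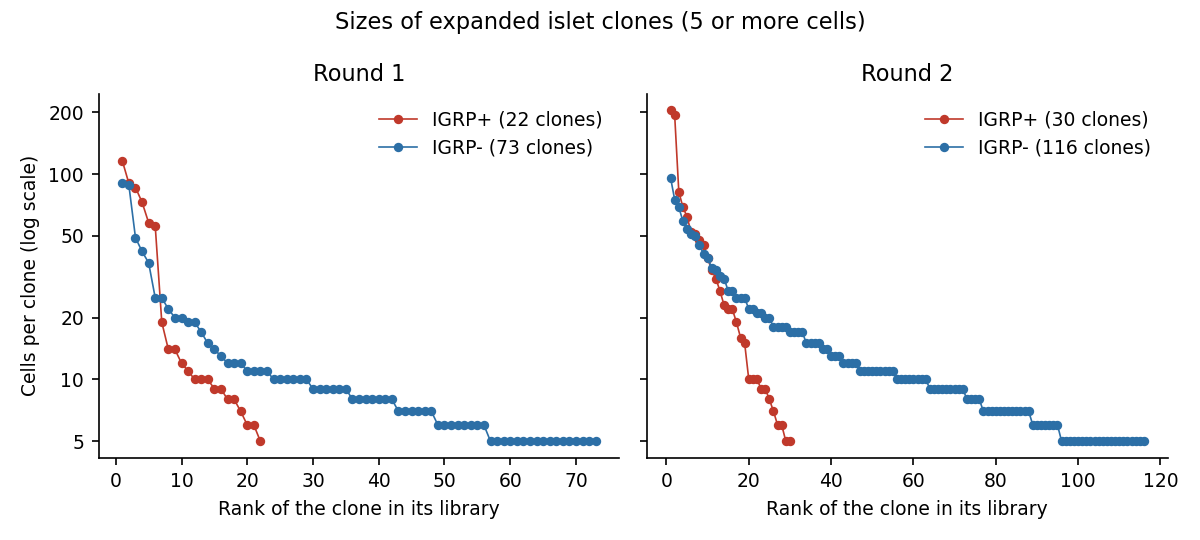
Cells per expanded clone on a log axis against the rank of the clone in its library, for Rounds 1 and 2, with IGRP+ in red and IGRP- in blue. The IGRP+ and IGRP- curves start close together in Round 1 (116 and 90 cells) and apart in Round 2 (205 and 96 cells). The curves cross, and the IGRP- clone is the larger from rank 7 in Round 1 (19 and 25 cells). In Round 2 it is the larger from rank 11 (34 and 35 cells). The IGRP- curves run on to 73 and 116 clones.

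Receptor message per cell was lower by 1 α UMI and 2 β UMIs in the median IGRP+ cell of each round. The median cell held 3 and 4 α UMIs and 9 and 12 β UMIs in IGRP+, against 4 and 5 α UMIs and 11 and 14 β UMIs in IGRP- cells. Over both rounds the groups touched for α and overlapped for β, with a mean difference of -1 UMI for α and -2 for β (exact permutation test, two-sided, p = 0.667 for each, where 0.333 is the smallest this design allows).

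Across all genes, no difference between expanded IGRP+ and IGRP- cells passed the test without a term for the round. Counts were summed per library and 10197 genes were tested with edgeR's quasi-likelihood test, of which 0 were called higher and 0 lower (0% of the genes tested) at an adjusted p under 0.05. Every gene had an adjusted p of 0.963 or more, and 291 genes had an unadjusted p under 0.05. DESeq2 called 0 genes higher and 1 lower (0.00981%), with 127 genes at an unadjusted p under 0.05. The rounds themselves differed, and a round is 1 pool of mice. The scRNA-seq libraries of the rounds were also sequenced with different kits and read lengths, so mice and sequencing cannot be told apart. With the round as a block, edgeR called 56 genes higher (0.549%) and 204 lower (2%) in IGRP+ cells. Of these 260, 258 had the same direction in both rounds. Of all genes, 32.4% were higher and 32.8% lower in both rounds. The blocked fit favours genes whose rounds agree, so the count of 258 is no separate support for the calls. That fit leaves 1 residual degree of freedom, and with the same block DESeq2 called 7 genes higher (0.0686%) and 17 lower (0.167%), all 24 of them among the 260. All differences below are log2 values ± SE of IGRP+ over IGRP- cells with the round as a block, and an adjusted p is that of edgeR's test in this fit, over all genes (n = 2 libraries per group). A gene is named as called only where that p is under 0.05. For every gene list below, the shares over all genes were 0.549% called higher and 2% called lower.

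**Figure D2:**
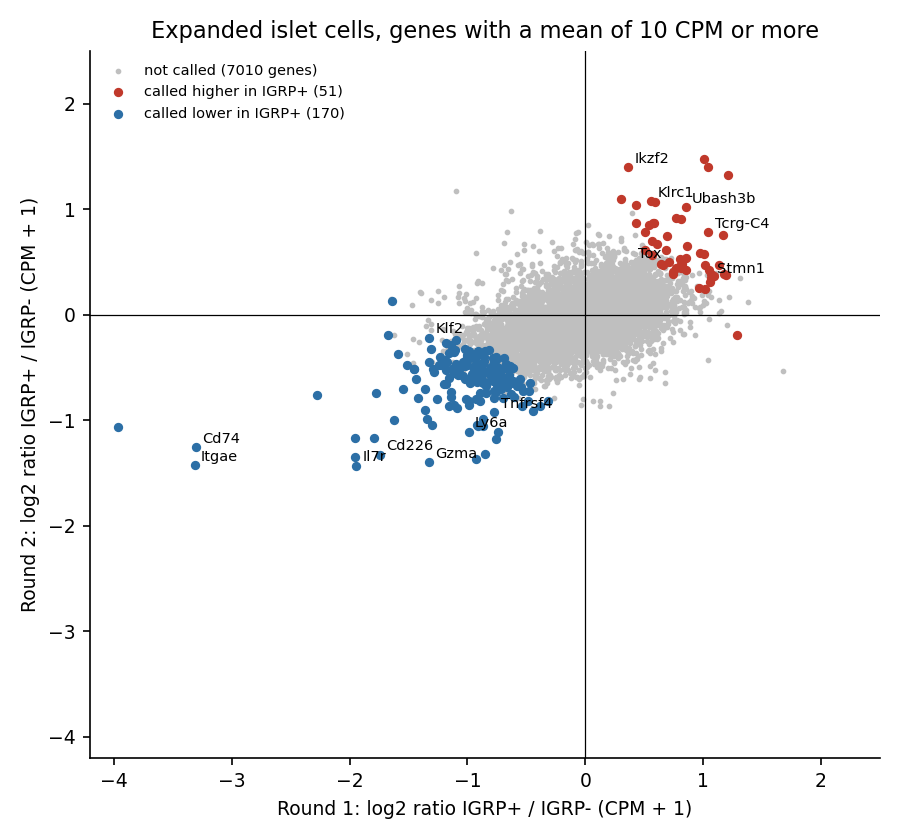
Each point is a gene with a mean of 10 CPM or more, placed by its log2 ratio of IGRP+ to IGRP- expanded cells (CPM + 1) in Round 1 (x axis) and Round 2 (y axis). Red and blue points were called with the round as a block, and most of them lie along the diagonal, with Itgae, Cd74, Il7r and Cd226 far out on the lower side and Klrc1, Ikzf2, Ubash3b and Tcrg-C4 on the upper side.

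Of the 260 genes, 13 were called in each of 13 further fits with the block, which changed the cells, the scaling, the filter or the tool. On the higher side these were Ubash3b and Klrc1. On the lower side they were Ly6a, Malt1, Tnfrsf4, Itpkb, Hif1a, Per1, Lars2, Gm26917 and the mitochondrial genes mt-Co3, mt-Cytb and mt-Atp8. This set was picked after its values were seen.

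Killer lectin-like receptors are shared with NK cells and read MHC class I and related ligands. Of 7 tested, 4 were called higher and 0 lower, against 0.549% and 2% of all genes. Their median was 0.58, against 0.00 over all genes, and 5 of 7 were higher in both rounds, as were 32.4% of all genes. Klrc1 (chr6:129666015-129678973), which encodes the inhibitory receptor NKG2A, stood at 404 and 421 CPM in IGRP- and at 595 and 890 CPM in IGRP+ cells. The groups did not overlap, which was so for 15.8% of all genes on the higher side, and the difference was 0.82 ± 0.16 (adjusted p = 0.00473, 1.77-fold). A Klrc1 UMI was found in 53.6% and 49.4% of IGRP- and in 78.2% and 81.1% of IGRP+ cells, at similar depth per cell.

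3 further receptors of this list, all on chromosome 6 like Klrc1, were called on the same side. Klrk1 (NKG2D) was at 153 and 120 CPM in IGRP- and at 218 and 207 CPM in IGRP+ cells, a difference of 0.65 ± 0.15 (adjusted p = 0.0183). Klre1 stood at 105 and 91.8 CPM against 170 and 155 CPM (0.73 ± 0.15, adjusted p = 0.00785), and Klrc2 at 55.2 and 41.5 CPM against 82.4 and 62.0 CPM (0.58 ± 0.15, adjusted p = 0.0425). The groups did not overlap for any of the 3, which was so for 15.8% of all genes on the higher side. Klrd1 (CD94), the partner chain of the NKG2 receptors, was at 193 and 196 CPM against 182 and 299 CPM, so its groups overlapped (0.27 ± 0.16, adjusted p = 0.387). Klre1 is also on the list of NK cell markers, whose other members were at 0 (Klrb1c) or too low to be tested (Ncr1).

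Ubash3b, Ikzf2 and Tcrg-C4 were among the largest differences on the higher side at over 50 CPM. Ubash3b (chr9:41011098-41161697) encodes a phosphatase that dampens TCR signals, and it stood at 50.5 and 45.6 CPM in IGRP- and at 92.1 and 93.7 CPM in IGRP+ cells (0.96 ± 0.15, adjusted p = 0.000599). Ikzf2, which encodes the transcription factor Helios, was at 169 and 78.9 CPM against 219 and 210 CPM (0.90 ± 0.18, adjusted p = 0.00768). The gap was small in Round 1 and wide in Round 2. Tcrg-C4, a constant gene of the TCR γ chain, was at 66.7 and 32.9 CPM against 139 and 57.3 CPM (0.93 ± 0.16, adjusted p = 0.000956), with overlapping groups, while Trdc of the δ chain was at 0 to 1.60 CPM. Tcrg-C4 is one of several similar γ constant genes, so its reads are uncertain.

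Coinhibitory receptors, the usual signs of exhausted cells, included few calls. Of 12 members tested, 1 was called higher and 0 lower, against 0.549% and 2% of all genes, with a median of 0.07. The called gene was Entpd1 (CD39), an enzyme that breaks down extracellular ATP, at 52.7 and 71.0 CPM in IGRP- and at 90.3 and 96.8 CPM in IGRP+ cells (0.60 ± 0.15, adjusted p = 0.0384). Pdcd1 (PD-1) stood at 496 and 441 CPM against 625 and 681 CPM, and did not pass (0.48 ± 0.15, adjusted p = 0.0863), but in the 13 further fits it was called in 6 (0.34 to 0.54, adjusted p from 0.0146 to 0.571). Havcr2 (TIM-3) had 36.7 and 59.4 CPM against 53.3 and 86.1 CPM (0.54 ± 0.16, adjusted p = 0.0650), and it was also called in 6 of the further fits (0.48 to 0.91, adjusted p from 0.00177 to 0.379). Tigit was at 626 and 608 CPM against 800 and 799 CPM (0.37 ± 0.15, adjusted p = 0.185), and Lag3 at 313 and 350 CPM against 358 and 461 CPM (0.30 ± 0.15, adjusted p = 0.293). Each of the last 4 was higher in IGRP+ cells in both rounds, as were 32.4% of all genes.

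Among 19 effector and exhaustion transcription factors, Ikzf2 was called higher and Hif1a lower. Tox, a driver of the exhausted state, was at 268 and 194 CPM in IGRP- and at 352 and 274 CPM in IGRP+ cells, so its groups lay apart by a narrow margin, without passing the test (0.45 ± 0.15, adjusted p = 0.104). In the 13 further fits Tox was called in 6, with differences of 0.35 to 0.69 and adjusted p from 0.00144 to 0.314 by edgeR or DESeq2. Hif1a, a transcription factor that is stabilized when oxygen is low, stood at 338 and 413 CPM against 218 and 266 CPM (-0.63 ± 0.15, adjusted p = 0.0206). Nr4a2, an early response factor, had 733 and 634 CPM against 579 and 725 CPM and showed no common direction (-0.07 ± 0.16, adjusted p = 0.861). The study chose Pdcd1, Tigit, Lag3, Tox and Nr4a2 on these samples for a higher level in IGRP+ islet cells, and 0 of these 5 were called in expanded cells with the block, although Pdcd1 and Tox each passed in 6 of the 13 further fits. The study compared single cells within each islet cluster, from clones of any size, so its cells and its comparison were unlike these.

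Genes of naive, memory and stem-like cells were called in 1 direction. Of 17 members, 7 were called lower in expanded IGRP+ cells and 0 higher, against 2% of all genes called lower, with a median of -0.41. Il7r (chr15:9505788-9530176), the receptor that keeps resting T cells alive, was at 39.0 and 49.6 CPM in IGRP- and at 9.40 and 17.8 CPM in IGRP+ cells. That is 200 and 496 UMIs against 31 and 113 UMIs, and a difference of -1.68 ± 0.19 (adjusted p = 1.23e-05), or 3.21-fold lower. S1pr1, which lets cells leave tissue, stood at 34.1 and 30.3 CPM against 17.6 and 14.2 CPM (-1.03 ± 0.18, adjusted p = 0.00170).

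Klf2, which drives S1pr1, was also called (-0.73 ± 0.19, adjusted p = 0.0384), but its values of 148 and 173 CPM against 58.5 and 149 CPM overlap and show most of the gap in Round 1. Most of the gap was also in Round 1 for Foxo1 (195 and 244 CPM against 90.0 and 192 CPM) and Bach2 (33.4 and 50.7 CPM against 13 and 35.3 CPM), 2 transcription factors of quiescent T cells, and Klf3 was called as well. Tcf7 (TCF-1), the factor of stem-like cells, was at 113 and 91.5 CPM against 78.8 and 86.0 CPM and did not pass (-0.30 ± 0.16, adjusted p = 0.327). Ccr7, the lymph node homing receptor, lay on the other side, with 130 and 207 CPM against 152 and 276 CPM (0.32 ± 0.15, adjusted p = 0.256). Slamf6, another mark of stem-like cells, had 66.3 and 65.1 CPM against 53.0 and 67.5 CPM. Of the 5 genes that the study chose on these samples as higher in IGRP- islet cells, 2 were called lower in expanded IGRP+ cells, namely Il7r and Klf2. Here too the study compared single cells within each islet cluster.

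**Figure D3:**
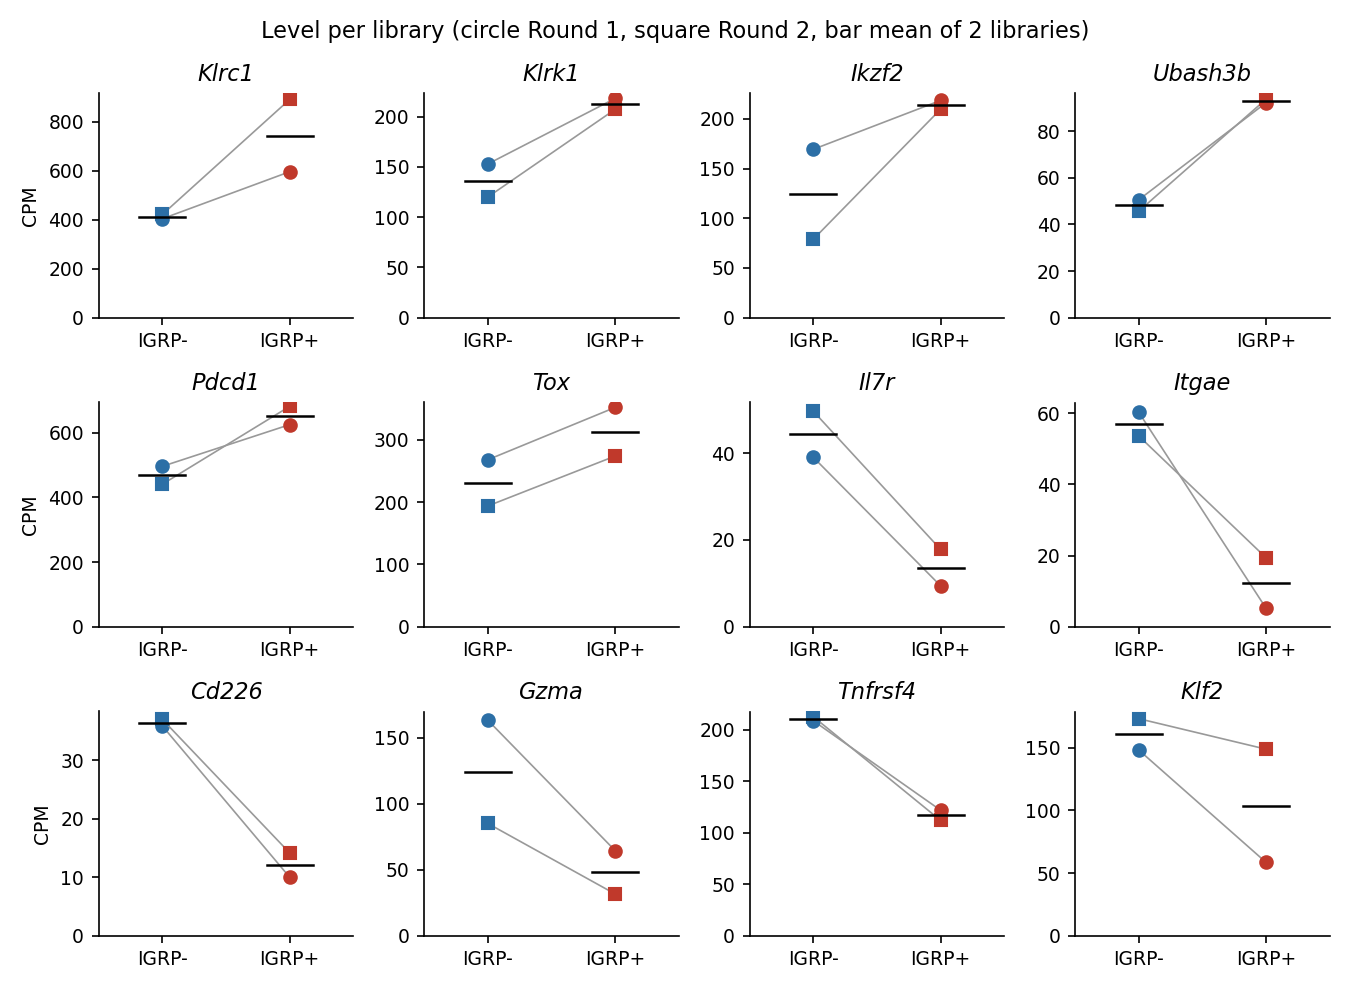
Normalized level in CPM of 12 genes in each of the 4 libraries of expanded cells (circles Round 1, squares Round 2, grey lines join the libraries of a round, black bars are the means of 2 libraries). Klrc1, Klrk1, Ikzf2, Ubash3b, Pdcd1 and Tox are higher and Il7r, Itgae, Cd226, Gzma, Tnfrsf4 and Klf2 lower in IGRP+ in both rounds, with the widest relative gap between the means for Itgae (60.3 and 53.6 against 5.15 and 19.4 CPM).

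Costimulatory receptors and ligands were split between members called lower and members not called. Of 10 members, 4 were called lower (Tnfrsf4, Cd226, Tnfrsf1b and Tnfsf8) and 0 higher, against 2% and 0.549% of all genes, with a median of -0.09. Cd226, the activating receptor that competes with TIGIT for the same ligands, stood at 35.9 and 37.0 CPM in IGRP- and at 10.0 and 14.2 CPM in IGRP+ cells (-1.56 ± 0.19, adjusted p = 2.50e-05, 2.95-fold lower). Tnfrsf4 (OX40) was at 209 and 213 CPM against 122 and 112 CPM (-0.85 ± 0.15, adjusted p = 0.00170). Its ligand gene Tnfsf4, named after its values were seen, was called on the other side, at 59.9 and 46.7 CPM against 91.8 and 74.9 CPM (0.65 ± 0.15, adjusted p = 0.0217). Tnfsf8 (CD30 ligand) had 24 and 14.8 CPM against 5.46 and 5.20 CPM (-1.77 ± 0.24, adjusted p = 0.000111). Cd27 was among the members not called (0.24 ± 0.15, adjusted p = 0.414).

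Receptors for cytokines included 5 of 20 called lower (2% of all genes were) and 0 called higher, with a median of -0.20. Besides Il7r, these were both chains of the IL-18 receptor, the IL-12 receptor chain Il12rb2 and the TGF-β receptor Tgfbr2. Il18rap was at 29.5 and 25.1 CPM against 13 and 16.8 CPM (-0.82 ± 0.19, adjusted p = 0.0223), and Il18r1 at 67.7 and 55.3 CPM against 35.5 and 43.3 CPM (-0.61 ± 0.17, adjusted p = 0.0483). Tgfbr2 stood at 135 and 145 CPM against 85.8 and 97.6 CPM (-0.61 ± 0.15, adjusted p = 0.0276). Il12rb2 was low in all libraries, at 5.46 and 7.30 CPM against 2.73 and 2.20 CPM.

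Early genes after TCR signals were also called in 1 direction. Of 22 members, 6 were called lower and 0 higher, against 2% and 0.549% of all genes. Of these 22, 17 were lower in both rounds (32.8% of all genes were), and the median was -0.33. Dusp2, a phosphatase that limits MAP kinases, stood at 356 and 314 CPM in IGRP- and at 195 and 200 CPM in IGRP+ cells (-0.76 ± 0.15, adjusted p = 0.00602). Cd5, whose surface level tracks the strength of TCR signals in resting cells, was at 279 and 347 CPM against 163 and 210 CPM (-0.75 ± 0.15, adjusted p = 0.00611). The others called were Dusp5, Nfkbid, Fosl2 and Cd6. Cd69 had 226 and 207 CPM against 156 and 164 CPM, and did not pass (-0.43 ± 0.15, adjusted p = 0.125). Nr4a1, Egr1 and Fos, chosen after their values were seen, were each called in 0 of the 13 further fits. Their differences there ran from -0.28 to 0.06, from -0.45 to 0.11 and from -0.36 to 0.03.

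For the signalling chain itself, 1 of 20 proximal members was called, Nfatc2, at 25.8 and 28.1 CPM against 11.2 and 19.4 CPM (-0.78 ± 0.19, adjusted p = 0.0303). Malt1, a protease that links the TCR to NF-κB and is on none of the lists, stood at 96.6 and 130 CPM against 42.7 and 70.9 CPM (-1.01 ± 0.16, adjusted p = 0.000445). Of 13 genes of anergy and signal inhibitors, 1 was called, and it was lower (2% of all genes were called lower). This was Itpkb, a kinase that acts on inositol phosphates, with 209 and 270 CPM against 102 and 198 CPM (-0.73 ± 0.16, adjusted p = 0.0138). Dgka, which removes the messenger diacylglycerol, had 121 and 141 CPM against 71.8 and 129 CPM (-0.42 ± 0.16, adjusted p = 0.175).

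Cytotoxic genes were close except for Gzma. Of 12 members, 1 was called lower and 0 higher, against 2% and 0.549% of all genes, with a median of 0.05. Gzma (chr13:113093825-113100981), granzyme A, stood at 164 and 85.2 CPM in IGRP- and at 64.6 and 31.6 CPM in IGRP+ cells (-1.38 ± 0.16, adjusted p = 1.23e-05, 2.61-fold lower). With clones of 10 or more cells the difference was -0.15, and without cells of 3 or more cell cycle UMIs it was -0.72. Gzma was not called in either fit, and the second one left out 82.5% to 85.2% of the expanded cells. With 5 cells drawn from each clone it was -2.41. Its UMIs came from few cells. In the 4 libraries, 4.91% to 6.81% of cells had a Gzma UMI, the 5 cells with the most held 37.3% to 55.9% of its UMIs, and 1 IGRP- clone of 9 cells gave 31.1% of them in Round 1. Gzmb was at 188 and 196 CPM against 236 and 218 CPM (0.24 ± 0.15, adjusted p = 0.406). Nkg7, a granule protein, had 2081 and 2151 CPM against 3011 and 2453 CPM without passing (0.36 ± 0.16, adjusted p = 0.236). Of 10 effector cytokines and chemokines, 0 were called, and Ccl5 was nearest (0.52 ± 0.17, adjusted p = 0.0975).

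Among 18 genes of residency, adhesion and homing, Itgae was the 1 called, and it was lower (2% of all genes were called lower). Itgae (chr11:73090583-73147446) encodes CD103, which binds E-cadherin on epithelia and marks many resident CD8 T cells. It stood at 60.3 and 53.6 CPM in IGRP- and at 5.15 and 19.4 CPM in IGRP+ cells (-2.12 ± 0.25, adjusted p = 2.23e-05, 4.36-fold lower). An Itgae UMI was found in 14.5% and 14.5% of IGRP- cells and in 1.73% and 5.35% of IGRP+ cells. Cxcr6, another gene of resident cells, was at 383 and 499 CPM against 529 and 621 CPM and did not pass (0.39 ± 0.15, adjusted p = 0.167).

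Genes of the cell cycle had their widest gap in Round 1. Of 23 members, 3 were called higher in IGRP+ cells (Birc5, Stmn1 and Pclaf) and 0 lower, against 0.549% of all genes called higher, 19 were higher in both rounds, against 32.4% of all genes, and the median was 0.36. Stmn1, which frees tubulin in dividing cells, stood at 251 and 88.2 CPM in IGRP- and at 526 and 113 CPM in IGRP+ cells (0.72 ± 0.16, adjusted p = 0.0182), and its groups overlapped. The list summed to 2980 CPM in IGRP- and 4639 CPM in IGRP+ cells of Round 1, and to 2420 and 2658 CPM in Round 2. Top2a had 81.8 and 67.9 CPM against 122 and 58.9 CPM, so its direction differed between the rounds. A UMI of Mki67 or Top2a was found in 22.7% and 21.6% of IGRP- and in 28.1% and 20% of IGRP+ cells. Without those cells the blocked fit called 87 genes higher and 274 lower, with 220 of the 260 genes among them. A stricter limit of 3 UMIs over the whole list took out 82.5% to 85.2% of the expanded cells and left 105 to 315 cells per library. Then 7 genes were called higher and 32 lower. In glycolysis, 1 of 17 members was called higher, Gapdh (0.58 ± 0.15, adjusted p = 0.0423).

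Of 23 interferon-stimulated genes, 2 were called lower (2% of all genes were), Ly6a and Gbp5, and 0 higher, with a median of -0.15. Ly6a (Sca-1) was at 341 and 543 CPM in IGRP- and at 171 and 251 CPM in IGRP+ cells (-1.06 ± 0.15, adjusted p = 0.000152). Of 16 S100, galectin and annexin genes, Lgals1 was called higher, with 1617 and 1630 CPM against 2853 and 2274 CPM (0.65 ± 0.16, adjusted p = 0.0279), and Ahnak lower (-0.63 ± 0.15, adjusted p = 0.0295). None of 13 Bcl2 family members was called, and 1 of 13 heat shock and dissociation genes was called lower.

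**Figure D4:**
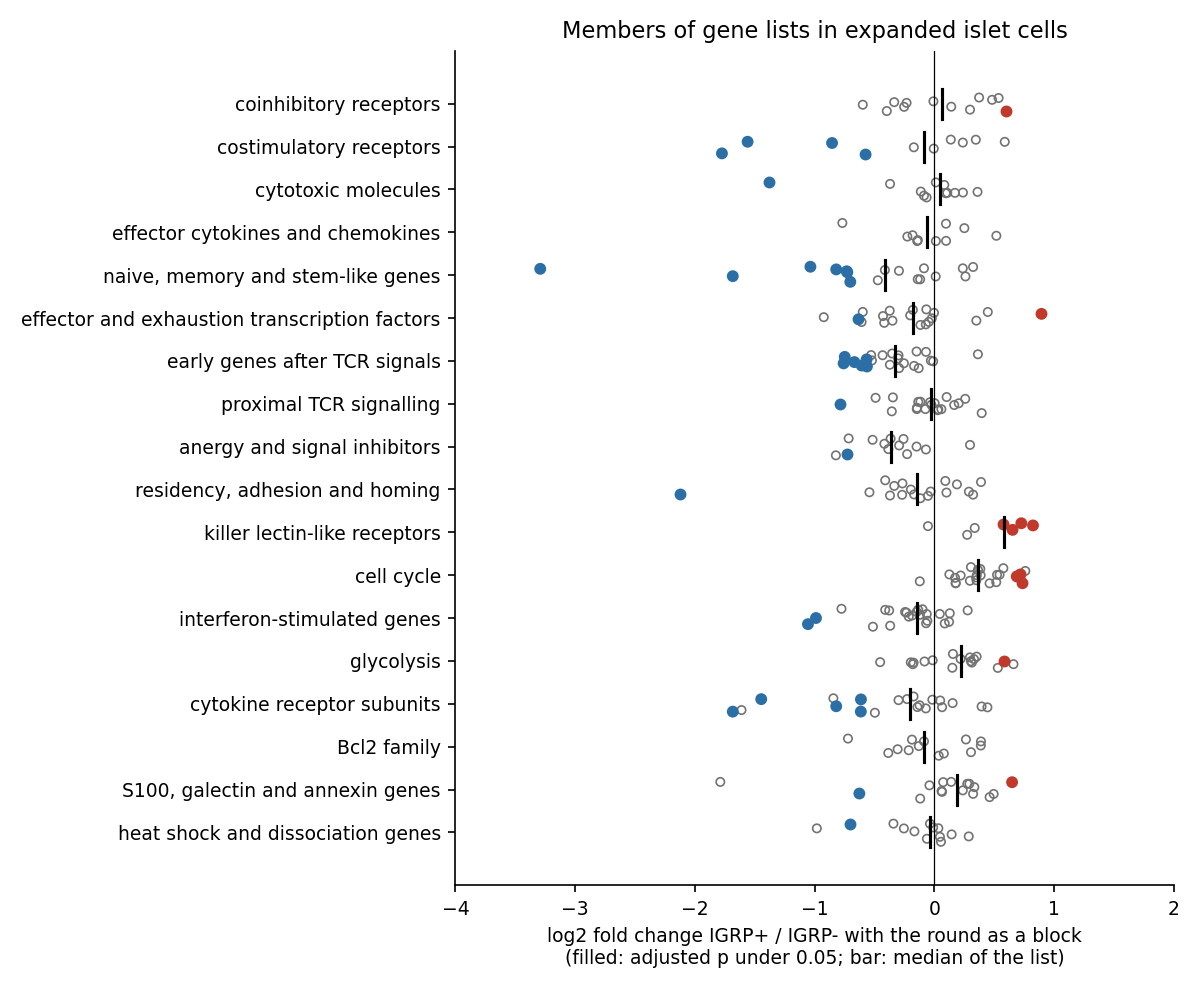
Each point is a member of a gene list, placed by its log2 fold change of IGRP+ over IGRP- expanded cells with the round as a block, filled red or blue where called higher or lower. Black bars are list medians, and the filled points sit on the right for killer lectin-like receptors (4 of 7) and the cell cycle (3 of 23) and on the left for naive, memory and stem-like genes (7 of 17), early genes after TCR signals (6 of 22) and cytokine receptors (5 of 20).

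Some called genes moved together with signs of other cells or of RNA quality, and the part of these in the results was not tested. MHC class II genes, which mouse T cells hardly express, were chosen after their values were seen. Cd74, their invariant chain, was at 81.0 and 31.5 CPM in IGRP- and at 7.27 and 12.6 CPM in IGRP+ cells (-2.19 ± 0.27, adjusted p = 2.50e-05). In Round 1, 267 of its 415 IGRP- UMIs came from 1 cell, and H2-Aa had 125 of 138 UMIs in 1 cell. In Round 2 the cell with the most held 40 of 315 Cd74 UMIs. A Cd74 UMI was found in 8.19% and 7.54% of IGRP- and in 2.98% and 4.82% of IGRP+ cells. The myeloid gene Lyz2 was called with 16 and 40 UMIs against 0 and 4 UMIs, of which 39 lay in 1 cell in Round 2. Myeloid markers as a list summed to 195 and 213 CPM in IGRP- and to 237 and 211 CPM in IGRP+ cells.

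Of 6 exocrine markers, 5 were called lower in IGRP+ cells, against 2% of all genes, with a median of -1.02. They summed to 42.9 and 259 CPM in IGRP- and to 22.1 and 138 CPM in IGRP+ cells, so the rounds differed more than the groups. Markers of β cells summed to 2.12 to 5.98 CPM. The median share of mitochondrial UMIs was 2.75% and 1.65% in IGRP- and 1.79% and 1.15% in IGRP+ cells, and mt-Co3 stood at 3662 and 2672 CPM against 1928 and 1038 CPM (-1.15 ± 0.16, adjusted p = 0.000152). AY036118 and Gm26917, neighbouring non-coding genes on chromosome 17, were called lower too, with differences of -1.25 ± 0.19 (adjusted p = 0.000305) and -0.96 ± 0.15 (adjusted p = 0.000507). The study reads AY036118 otherwise, as the gene of the repressor ERF1, and names a spleen cluster after it.

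The differences were spread over clones to different degrees, as the levels in single clones of 20 or more cells show. There were 10 and 25 such IGRP- clones and 6 and 16 such IGRP+ clones in Rounds 1 and 2. Clones of a library share a pool of mice and were not tested. The CPM of a clone are relative to its own UMIs. For Ubash3b, all 6 and all 16 IGRP+ clones lay above the IGRP- median of their round, and 8 of 10 and 16 of 25 IGRP- clones lay below every IGRP+ clone. IGRP+ clones ranged from 66.1 to 101 CPM in Round 1 and from 49.2 to 179 CPM in Round 2, and IGRP- clones from 0 to 110 and from 3.82 to 129 CPM.

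Klrc1 varied more among IGRP- clones, from 26.5 to 858 CPM in Round 1 and from 47.1 to 1182 CPM in Round 2. IGRP+ clones held 287 to 744 and 492 to 1453 CPM, and all 16 of them lay above the IGRP- median in Round 2 (4 of 6 in Round 1). Pdcd1 showed a like picture, with 6 of 6 and 15 of 16 IGRP+ clones above the IGRP- median, although 2 IGRP- clones exceeded all IGRP+ clones in Round 1. For Ikzf2, 15 of 16 IGRP+ clones lay above the IGRP- median in Round 2 but 3 of 6 did in Round 1.

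On the lower side, a few IGRP- clones carried high levels and many did not. Itgae reached 239 and 335 CPM in single IGRP- clones, with medians of 20.9 and 23.1 CPM, while IGRP+ clones had medians of 1.43 and 11.8 CPM and were at 0 in 3 of 6 and 4 of 16 clones. In Round 1, 9 of 10 IGRP- clones lay above every IGRP+ clone, and in Round 2 4 of 25 did. Il7r had medians of 15.8 CPM in IGRP- clones of both rounds against 7.01 and 12.5 CPM in IGRP+ clones, and highest values of 102 and 145 CPM against 12.5 and 70.2 CPM. The Il7r medians of large clones are thus closer than the summed levels of 39.0 and 49.6 against 9.40 and 17.8 CPM. Cd226 had medians of 21.2 and 23.6 CPM in IGRP- against 5.62 and 6.05 CPM in IGRP+ clones. Gzma in Round 1 had the higher median in IGRP+ clones (55.2 against 16.5 CPM), opposite to its summed level.

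**Figure D5:**
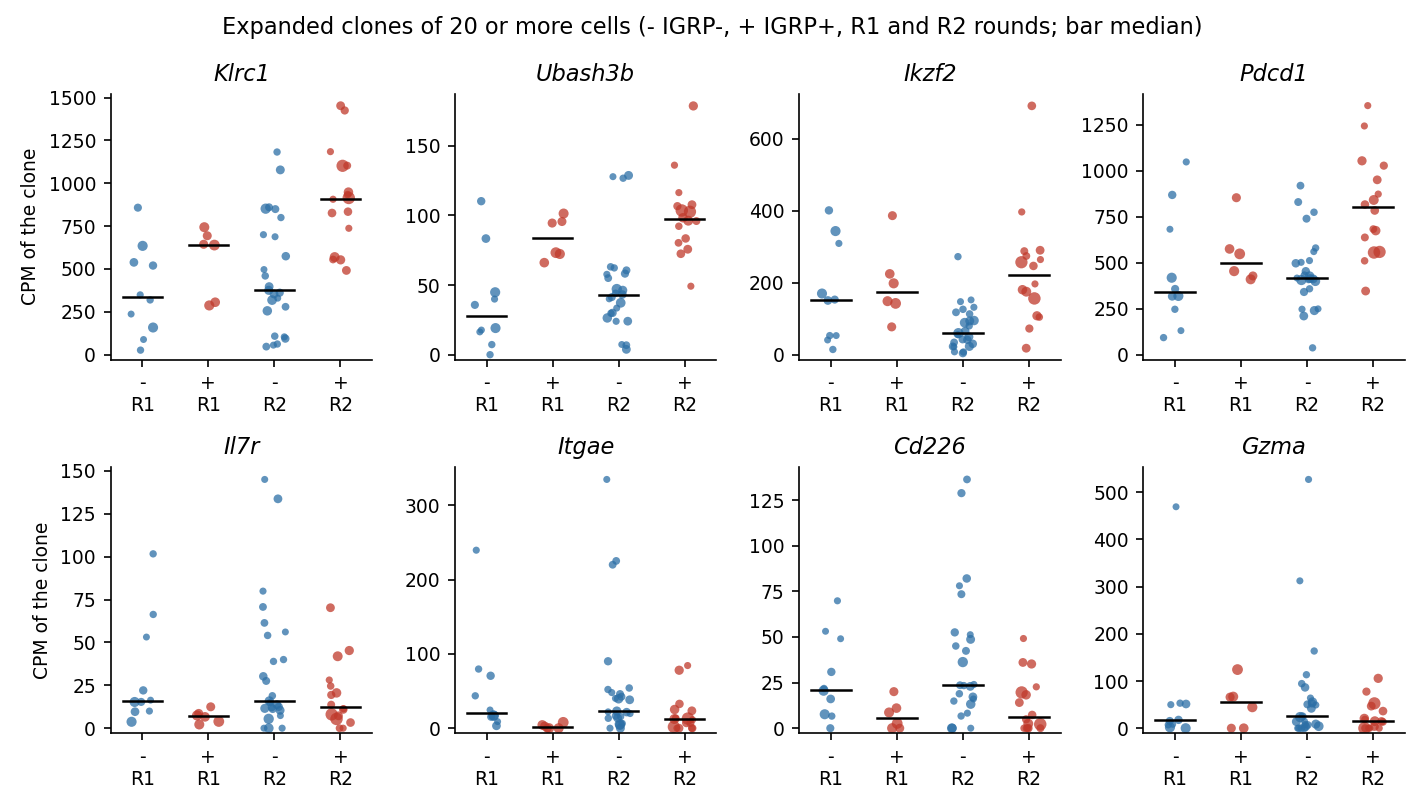
Level in CPM of 8 genes in each expanded clone of 20 or more cells (points, sized by the square root of the clone's cells, IGRP- blue and IGRP+ red) in Rounds 1 (R1) and 2 (R2), with black bars at the medians. IGRP+ clones sit in a narrow band for Ubash3b (66.1 to 101 CPM in Round 1), and single IGRP- clones stand far above the rest for Itgae (up to 335 CPM) and Gzma (up to 527 CPM).

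The results were also computed without single clones. The clone with the most Klrc1 UMIs gave 24.9% and 21.8% of them in IGRP+ cells. Without it Klrc1 stood at 509 and 895 CPM. These values were not TMM-scaled, so they cannot be set against the levels of 595 and 890 CPM given above. Without the largest clone of each library the blocked fit called 175 genes higher and 409 lower, with 256 of the 260 genes among them. With only 5 cells drawn from each clone, it called 36 higher and 98 lower, with 92 of the 260 among them. When IGRP- clones that use TRAV16N or recur among tetramer-positive spleen cells were left out, it called 159 higher and 387 lower.

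Set beside the contrast of all cells that passed the filters, which includes these cells, the expanded cells gave smaller differences for many genes. The difference between these contrasts was not tested. Across all cells edgeR called 0 genes higher and 15 lower of 11781 (0% and 0.127%) without a block, and 1785 higher (15.2%) and 1840 lower (15.6%) with it. Without a block, the all-cell and the expanded-cell values were 1.19 and 0.48 for Pdcd1, 0.95 and 0.37 for Tigit, 1.08 and 0.31 for Lag3, and 1.08 and 0.44 for Tox. Il7r had -3.72 in all cells and -1.68 in expanded cells, S1pr1 -3.37 and -1.03, Klf2 -2.38 and -0.63, and Ccr7 -1.60 and 0.34. Some genes had as wide a gap among expanded cells as in all cells. Itgae had -1.91 and -2.15, Cd226 -1.40 and -1.57, and Malt1 -0.93 and -0.99. Tnfrsf4 had -0.25 in all cells and -0.85 in expanded cells, and Cd5 -0.25 and -0.75.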

How the data were processed

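CD8 T cells from 2 rounds of 10 pooled NOD mice were profiled by 10x 5′ scRNA-seq and scTCR-seq. The authors made the count files with Cell Ranger on the mm10 transcriptome and deposited raw UMI counts per gene and cell without normalization. The file headers name Cell Ranger 5.0.1, and the study's methods name a later version. For the scTCR-seq, contigs with V and J genes, CDR3 and UMI counts were deposited, and all were productive. Groups and rounds came from the sample titles. Here, the 4 islet library pairs were used, and spleen libraries served only to look up receptors. Depth per library is given in the results, and 3 counts were taken as the floor.

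Counts of expanded cells were summed per library and tested in R 4.3.3 with edgeR 4.0.16 (limma 3.58.1; TMM, filterByExpr, glmQLFTest, Benjamini-Hochberg, threshold 0.05). There was no term for the round, and 254 TCR segment genes were left out because the sort selects on the receptor. CPM are TMM-scaled. An alternative fit took the round as a block. Rounds pair the libraries because each was 1 pool of mice, and across 10197 genes the deviations between rounds correlated between the groups (Pearson r of 0.708, over genes, which are not independent). Further alternatives were DESeq2 1.42.0, its size factors, no filter, and other choices of cells, clones and chains. Doublets were not called, ambient RNA was not removed, and no cell was clustered. The 2 groups of 2 libraries may differ by technical spread alone. Gene positions are from GENCODE vM21, which held 32158 of 32285 gene IDs. Other steps used Python 3.11.15, scipy 1.17.1, pandas 2.3.3, numpy 2.4.6 and matplotlib 3.10.9, and the tests were tried on simulated counts.

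The members and the gene lists were chosen with earlier results of these data known. Genes named were up to 6 members per list (the 4 with the largest change and the 2 with the highest mean), genes that the study names for islet cells, and, in each direction, the 10 largest changes among called genes that had 50 CPM or more in the higher group and went the same way in each round. That last part gave none without the block, and it was applied to the blocked fit after its values were seen. Other called list members were named after their values were seen. Of the genes that the study names for islet cells, Cd44, Cblb and Klrg1 are not described above. Each was called in 0 of the further fits with the block that tested it. One called list member is not reported here.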

Additional observations from a re-analysis of the deposited data

Results flagged for a closer look

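Receptors of expanded islet clones also occurred in the tetramer-positive spleen libraries of the same rounds. The comparisons use these libraries only in the alternative that leaves out IGRP- clones that may bind the tetramer. The limit that a count of 0 allows is 3 cells there. Of 1668 paired spleen cells in Round 2, 10 (0.60%, 95% Clopper-Pearson interval 0.288 to 1.10) carried the α and β sequences of 4 of the 116 expanded IGRP- islet clones, and 1 of these clones accounted for 5 of them. In Round 1, 3 of 1660 spleen cells matched 3 of 73 such clones, which is at that limit. Against the spleen library of the other round, 0 cells matched in either case. The receptors of expanded IGRP+ clones were carried by 1279 of 1660 spleen cells in Round 1 (77.0%, 74.9 to 79.1), from 18 of 22 clones, and by 1373 of 1668 in Round 2 (82.3%, 80.4 to 84.1), from 27 of 30 clones. With the spleen of the other round, 88 and 271 cells matched these clones. The intervals cover counting error only, and some barcodes are listed in more than 1 library.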

How the results depend on the processing

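Without the round as a block, edgeR's counts of 0 higher and 0 lower stayed at 0 under the other choices, apart from the following. No filter on low counts gave 5 higher and 21 lower, DESeq2 gave 1 lower and keeping TCR segment genes 1 lower. Leaving out a library leaves 1 library in its group, so those fits cannot show whether the counts are stable. The replicate block, which uses the pairing of libraries by round, gave 56 higher and 204 lower, and with a library left out it leaves no residual degrees of freedom and was not fitted. Fits that join the block with another choice, and the one without Mki67 or Top2a cells, were added after seeing the data. With the block, calls higher numbered 36 with 5 cells drawn per clone, 144 with clones of both groups kept, 220 with clones of 3 or more cells, 86 without an upper limit on genes, 87 without Mki67 or Top2a cells, 7 without cycling cells, 159 without IGRP- clones that may bind the tetramer, 175 without the largest clones and 7 by DESeq2. Calls lower numbered 98, 371, 479, 344, 274, 32, 387, 409 and 17 in the same order, and 133 with further chains allowed. The setting without cycling cells (3 or more UMIs over the cell cycle list) left 105 to 315 cells per library. It took out 82.5% to 85.2% of the expanded cells, while 20% to 28.1% held a UMI of Mki67 or Top2a. Counts within 1.5 times of the blocked ones are not listed. The cause of these shifts was not tested.

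Of the list members, 0 were called higher and 0 lower without the block, with 6 lower under no filter. The replicate block gave 11 higher and 30 lower. With the block, 18 were called higher with clones of both groups kept, 26 with clones of 3 or more cells, 17 without the upper limit, 22 without Mki67 or Top2a cells, 4 without cycling cells, 21 without IGRP- clones that may bind the tetramer, 21 without the largest clones and 3 by DESeq2, and 52, 11 and 7 were called lower with clones of 3 or more cells, without cycling cells and by DESeq2.

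The other results kept their direction in every alternative run. Leaving out libraries gave 1.5 to 13 cells for the difference in median clone size, 61.8 to 63.0 percentage points for the share in expanded clones, -1.5 to -0.5 UMIs for α and -3.5 to -0.5 for β. The mean of the paired differences within rounds equals the main value by arithmetic in this design, so it is no separate check. Counting contigs that are not productive changed nothing, since all were productive.

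Among 79 of the named genes, 7 changed sign in 11 of 1558 values without the block and 2 in 3 of 1005 with it. Of the blocked values, 846 kept their side of the threshold, 124 lost the call and 32 gained it. Ccr7 had a log2 difference of -0.18 without cycling cells (-0.19 with the block). Top2a had -0.060 with 5 cells per clone and -0.12 without the upper limit, and -0.15 in both cases with the block. Leaving out libraries gave ranges across 0 for Nr4a2 (-0.24 to 0.086), Slamf6 (-0.31 to 0.040), Ccr7 (-0.15 to 0.72), Top2a (-0.34 to 0.71), Klrd1 (-0.095 to 0.62), Stmn1 (-0.58 to 1.86) and Pclaf (-0.12 to 1.40). With 2 libraries per group, depth was not the only limit, since the exact tests could not fall under 0.333.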
